A study of Mus musculus with 7 samples.

Results

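The ubiquitin-specific proteases (USPs) form the largest family of deubiquitinases, the enzymes that take ubiquitin off other proteins. Their transcripts were measured by RNA sequencing of sorted pools of germinal centre B cells of the light zone, from mouse spleen. Members were the protein-coding genes of GENCODE vM21 whose symbol is Usp, a number and at most 1 letter, with at least 10 counts in 3 or more libraries. Of 50 such symbols in the count table, 41 met the minimum, among 48795 genes listed and 11618 tested, and all 41 passed the expression filter of the test.

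The samples were 3 libraries with the genotype label MIZ1KO, named LZ_MizFF in the titles, and 4 libraries labelled Control, named LZ_eYFP. All mice had received sheep red blood cells intravenously, an antigen that raises germinal centres, and spleens were taken on day 10. MIZ1, the product of Zbtb17, is a transcription factor with zinc fingers, and the comparison asks what changes in these cells when it is missing. The sources used here do not give the Cre driver, strain or age of the mice, nor whether each library came from its own mouse, so the p-values rest on the spread among these libraries, which may be in part technical.

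USPs are mostly cysteine proteases that cleave the bond between ubiquitin and its substrate, and so can spare a protein from the proteasome, end a signal or recycle ubiquitin. Each acts on its own set of substrates. Usp7 acts on p53 and its ligase MDM2, and Usp28 and Usp36 act on MYC, the partner with which MIZ1 represses genes. Others work on histones, on DNA repair factors, on receptors at the endosome or at the proteasome itself. A few, such as Usp39 in the spliceosome, have lost protease activity.

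Library totals ran from 6896673 to 9482453 estimated counts, of which 3087979 to 5084984 lay outside ribosomal RNA. The B cell genes Cd79a, Cd79b, Ms4a1 and Pax5 and the germinal centre genes Bcl6, Fas, Mef2b and S1pr2 had counts in every library, as the label of the cells asks. Zbtb17 measured 5.16, 3.70 and 4.50 CPM (counts after scaling each library to the same size) in MIZ1KO replicates 1 to 3, against 3.15, 3.42, 3.15 and 7.02 CPM in Control replicates 1 to 4. The groups overlapped, and since the counts cover the whole gene this level does not check the genotype labels. Provisional gene models, the GENCODE class TEC, took 0.544% to 0.923% of counts other than ribosomal RNA in MIZ1KO and 1.02% to 2.58% in Control, without overlap. The 6 T cell markers summed to 1.72 to 16.9 CPM in MIZ1KO and 0.131 to 1.56 CPM in Control, without overlap. Erythroid markers summed to more than the T cell markers in every library, and the erythroid and myeloid sums overlapped between the groups. None of the 6 T cell markers was at 0 in every library, and none had counts in every library. Of 4 follicular dendritic or stromal markers 3 were in the table, and Col1a1 and Pdpn were at 0 in every library. The sum of this list was therefore Cr1l alone, at 57.8 to 69.2 CPM in MIZ1KO and 104.5 to 122.7 CPM in Control. It is the level of 1 gene and does not measure the amount of such cells. The part of these markers in the results was not tested. The TEC share was tried as a covariate, and since it did not overlap between the groups, that fit cannot fully tell it apart from the genotype.

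Per length of transcript, the family was led by Usp7 and Usp1. Usp7 averaged 27.1 ± 1.17 CPM per kb of exonic length in MIZ1KO and 21.2 ± 0.982 CPM per kb in Control (SD, n = 3 and n = 4). Usp1, which with its WD-repeat partner Wdr48 removes ubiquitin from FANCD2 and PCNA in DNA repair, averaged 24.1 ± 0.171 and 16.7 ± 2.02 CPM per kb. Usp24, Usp25 and Usp9x came next, and for each the libraries of the groups overlapped. Usp24 averaged 13.1 ± 2.15 CPM per kb in MIZ1KO and 13.1 ± 1.43 in Control. Usp25, a paralog of Usp28, averaged 14.3 ± 1.87 and 12.2 ± 2.75 CPM per kb. Usp9x, a very large X-linked member, averaged 11.6 ± 0.621 and 11.9 ± 1.75 CPM per kb. At the low end stood Usp54, Usp46 and Usp20, with means over all libraries of 0.584, 0.489 and 0.144 CPM per kb.

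**Figure D1:**
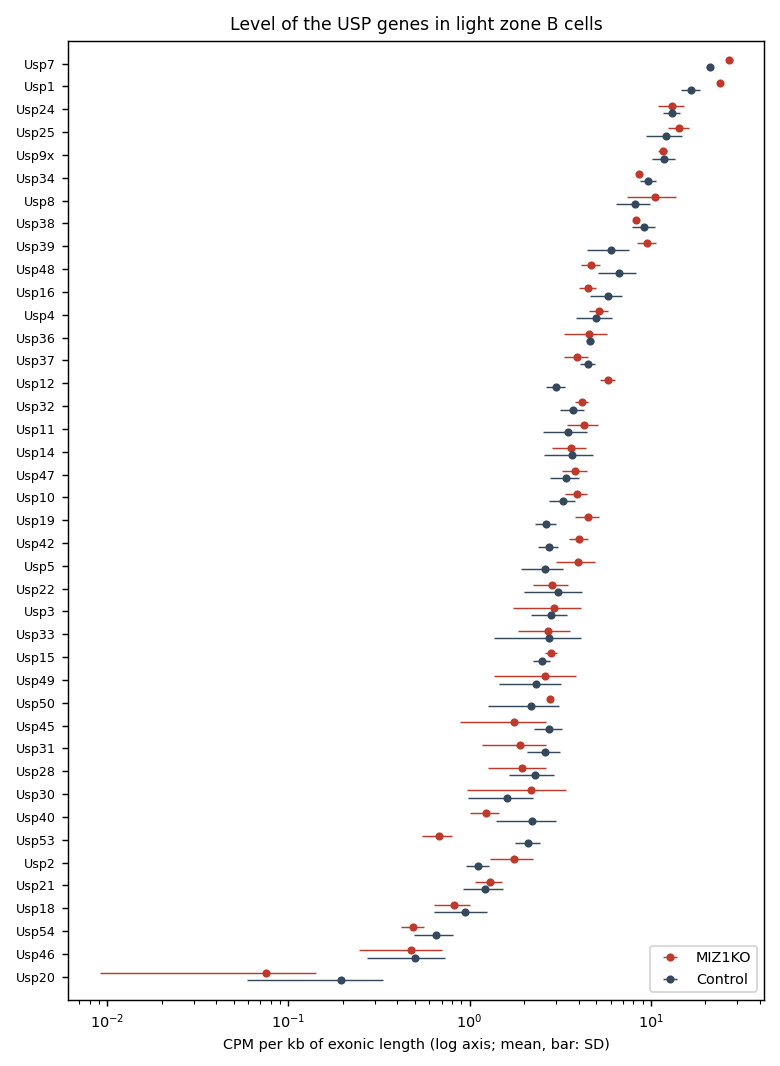
Level of each of the 41 USP genes, as CPM per kb of exonic length on a log axis, with the mean (point) and SD (bar) of the 3 MIZ1KO and the 4 Control libraries. Usp7 and Usp1 stand at the top and Usp20 at the bottom, with 0.144 CPM per kb.

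Summed over the 41 genes, USP transcripts took 1714 ± 81.9 CPM in MIZ1KO, against 1647 ± 89.5 CPM in Control (SD, n = 3 and n = 4). The libraries ran from 1634 to 1797 CPM in MIZ1KO and from 1537 to 1753 CPM in Control, so the sums overlapped. The 6 genes with the highest CPM, Usp7, Usp9x, Usp34, Usp24, Usp1 and Usp25, held 50.1% to 52.0% of the sum in MIZ1KO and 47.0% to 51.5% in Control. Within a group the median coefficient of variation of the members was 16.4% in MIZ1KO and 21.2% in Control, and Usp20 varied most in both, at 87.9% and 69.7%. The remaining 9 symbols fell short of the count minimum. Usp13, Usp29, Usp43, Usp26 and the Y-linked Usp9y had no counts in any library. Usp35, Usp27x and Usp51 reached at most 4, 4 and 7 counts. Usp44, a mitotic regulator, reached 37 counts but had 10 or more in only 2 libraries.

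Usp53 was lower and Usp12 higher in MIZ1KO, and the other 39 members did not pass an adjusted p of 0.05 in edgeR's quasi-likelihood test. Over all 11618 genes tested 5.96% passed, 1.9% higher and 4.05% lower, and 4.14% of protein-coding genes, so the members' 4.88% lay near the background. After correcting for GC content and length 199 genes passed higher and 126 lower, against 221 higher and 471 lower without it. Among the members 22 had a log2 fold change of MIZ1KO over Control above 0 and 19 below, with a median of 0.04, beside a median of -0.03 over all genes tested and 0.03 over protein-coding genes. Without an adjustment 8 members or 19.5% had a p under 0.05, against 24.6% of all genes tested. The libraries of the groups did not overlap for 10 members, 7 higher and 3 lower in MIZ1KO, which is 24.4% of them, beside 19.5% of all genes tested (8.74% higher and 10.8% lower).

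**Figure D2:**
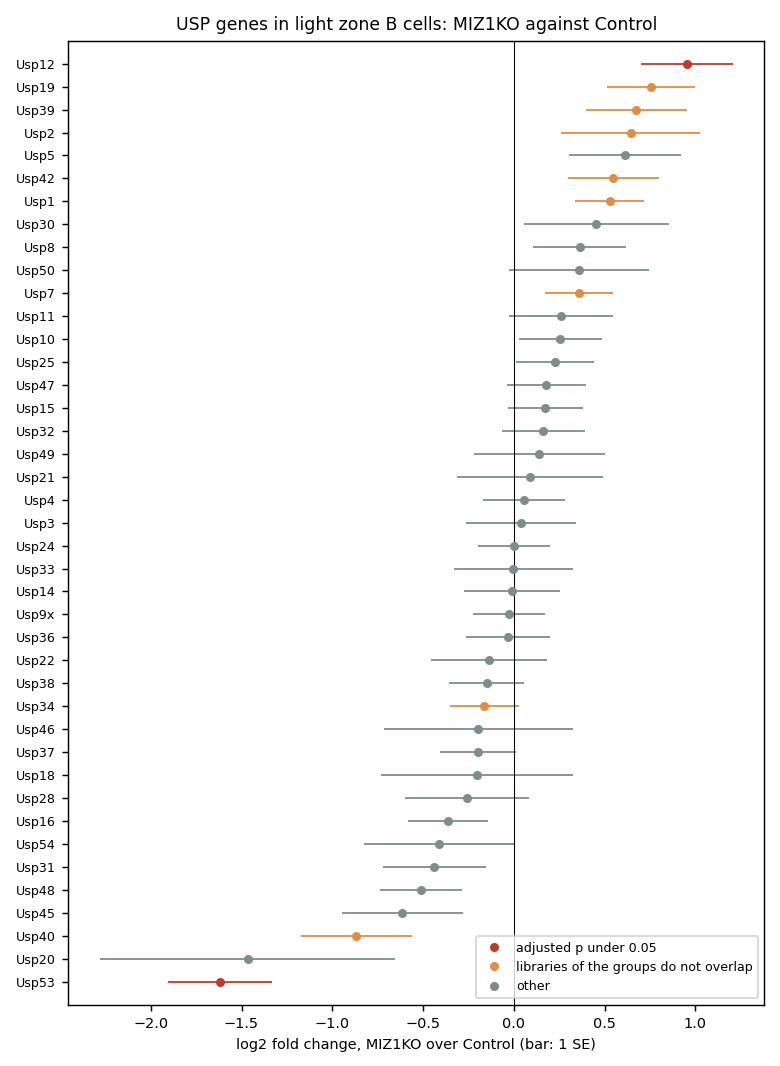
Log2 fold change of MIZ1KO over Control for each of the 41 USP genes, with 1 SE, ordered by size. Red marks the 2 members with an adjusted p under 0.05, Usp12 at 0.95 and Usp53 at -1.62, and orange the other 8 members whose libraries did not overlap between the groups.

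Usp53 measured 9.24, 9.59 and 6.60 CPM in MIZ1KO replicates 1 to 3, against 21.1, 27.2, 31.1 and 26.6 CPM in Control replicates 1 to 4. All MIZ1KO values lay under all Control values, from 41 to 96 counts in MIZ1KO and 161 to 265 in Control. Usp53 and its paralog Usp54 are divergent members of the family, and Usp53 is known as a protein of tight junctions. It fell by 1.62 on the log2 scale (SE 0.29, adjusted p = 0.00798, edgeR), to 0.325 of the Control level. In bulk RNA, fewer cells that express a gene and less of its RNA per cell cannot be told apart. The gene (ENSMUSG00000039701) lies on chromosome 3 from 122931493 to 122984510 in GRCm38, has 12572 exonic bases and overlaps no other gene model. The call was lost when MIZ1KO replicate 1 was left out, at a log2 fold change of -1.63 (adjusted p = 0.0528, edgeR). It was also lost with the TEC share as a covariate, a share that did not overlap between the groups, at -1.28 (adjusted p = 0.171, edgeR). A correction for GC content and length brought the log2 fold change to -1.06 and kept the call (adjusted p = 0.0420, edgeR), which was lost with the replicate block added (-1.11, adjusted p = 0.0852, edgeR).

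Usp54 measured 4.84, 4.80 and 3.70 CPM in MIZ1KO, against 4.33, 5.13, 6.96 and 7.32 CPM in Control. The groups overlapped, and its log2 fold change was -0.41 ± 0.41 (SE) with an adjusted p of 0.581 (edgeR). The log2 ratio of Usp53 to Usp54, with 0.5 CPM added to each, was 0.87, 0.93 and 0.76 in MIZ1KO and 2.16, 2.30, 2.08 and 1.79 in Control. The ratio was thus lower in each MIZ1KO library, by a mean of -1.23, with p = 0.0286 by exact permutation over 35 splits, two-sided, the smallest p these libraries can give. Adjusted over the 6 pairs of related USPs compared in this way, p was 0.171 by the exact permutation test, and the smallest p the design allows cannot pass that adjustment alone. The pairs were chosen after the values had been seen. Since Usp53 alone already separated the groups, its ratio to Usp54 is no separate support for the fall of Usp53.

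Usp12 measured 26.7, 29.6 and 24.5 CPM in MIZ1KO replicates 1 to 3, against 13.4, 13.4, 12.5 and 16.2 CPM in Control replicates 1 to 4. Every MIZ1KO library lay above every Control library, and the spread within each group was small. Usp12 and its close paralog Usp46 have little activity by themselves and are switched on by the WD-repeat proteins Wdr48 and Wdr20. Usp12 rose by a log2 fold change of 0.95 ± 0.25 (SE, adjusted p = 0.0360, edgeR), or 1.94-fold. The gene (ENSMUSG00000029640) lies on chromosome 5 from 146734809 to 146795006, has 4639 exonic bases and overlaps no other gene model. The call lay close to the threshold and ended when any library but Control replicate 1 was left out, where edgeR's adjusted p ran from 0.0597 to 0.128. With the TEC share as a covariate the log2 fold change was 0.86 (adjusted p = 0.368, edgeR), and with the replicate number as a block it was 1.04 (adjusted p = 0.0522, edgeR).

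Usp46 measured 3.76, 1.90 and 5.47 CPM in MIZ1KO, against 2.23, 3.89, 3.15 and 6.42 CPM in Control, with a log2 fold change of -0.20 ± 0.52 (SE, adjusted p = 0.860, edgeR). The log2 ratio of Usp12 to Usp46 averaged 2.79 ± 0.80 in MIZ1KO, against 1.78 ± 0.44 in Control (SD, n = 3 and n = 4), a difference of 1.02 with p = 0.0857 in the exact permutation test and 0.257 adjusted over the 6 pairs. In the other pairs the differences of the log2 ratio were 0.50 for Usp25 to Usp28, -0.96 for Usp20 to Usp33, 0.09 for Usp15 to Usp4 and -0.13 for Usp15 to Usp11, with adjusted exact permutation p-values from 0.514 to 0.629.

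**Figure D3:**
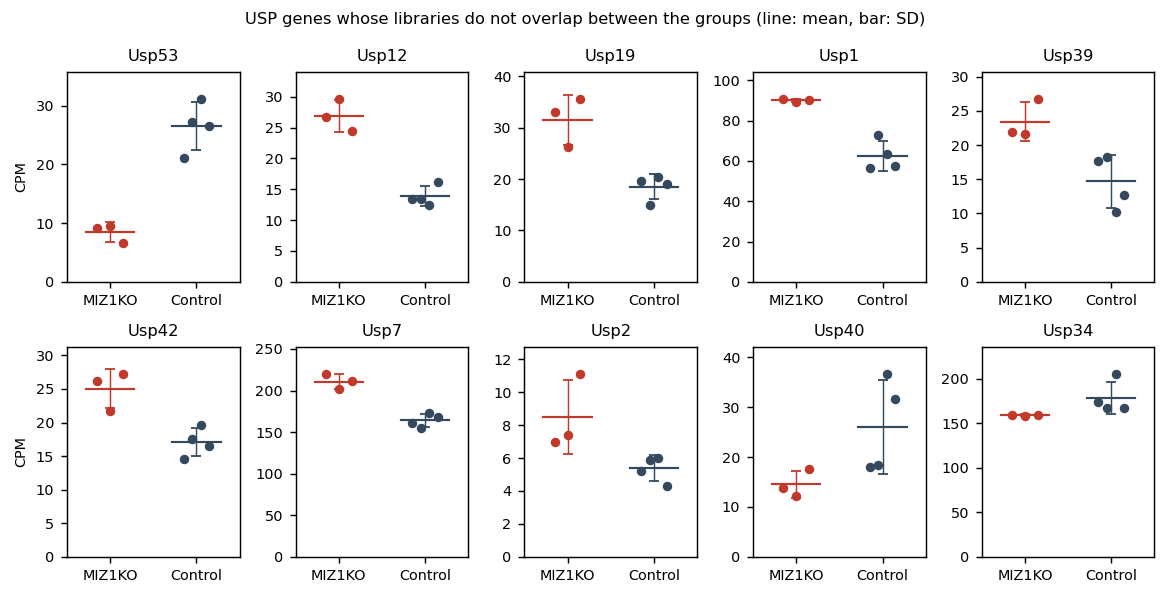
CPM of the 10 USP genes whose libraries do not overlap between the groups, for 3 MIZ1KO (left) and 4 Control (right) libraries, with the mean (line) and SD (bar) and each axis starting at 0. Usp53 lies between 6.60 and 9.59 CPM in MIZ1KO and between 21.1 and 31.1 CPM in Control, while Usp34 lies only just apart.

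Among the members grouped under chromatin and DNA repair, 0 of 12 passed the edgeR test, beside 5.96% of all genes tested. In that test 2 or 16.7% had an unadjusted p under 0.05, beside 24.6% of all genes tested. The median log2 fold change of the 12 was 0.06. Usp1 measured 90.6, 89.3 and 90.1 CPM in MIZ1KO, against 56.3, 72.8, 63.4 and 57.5 CPM in Control. The MIZ1KO libraries lay close together and above every Control library, and the log2 fold change was 0.53 ± 0.19 (SE) with an adjusted p of 0.0978 (edgeR). Usp7 measured 219.6, 201.5 and 211.2 CPM in MIZ1KO, against 161.5, 155.1, 172.4 and 168.2 CPM in Control. Again no library overlapped, and the log2 fold change was 0.36 ± 0.19 (SE, adjusted p = 0.243, edgeR). After correcting for GC content and length both passed, Usp1 at 0.86 (adjusted p = 0.0170, edgeR) and Usp7 at 0.61 (adjusted p = 0.0466, edgeR). That was 1 of 20 alternatives for each, and with the replicate block added to the same correction neither passed (adjusted p = 0.0651 for Usp1 and 0.116 for Usp7, edgeR).

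Usp48 is a nuclear member that was lower in 3 of 3 MIZ1KO libraries than in 3 of 4 Control libraries. It measured 39.1, 47.8 and 49.5 CPM in MIZ1KO, against 45.3, 67.2, 82.3 and 64.4 CPM in Control, with a log2 fold change of -0.51 ± 0.23 (SE, adjusted p = 0.173, edgeR). It passed in 1 of 20 alternatives, without Control replicate 1, the Control library that lay among the MIZ1KO values. Usp45, which acts on the repair nuclease subunit ERCC1, gave -0.62 ± 0.33 and Usp16, a histone H2A deubiquitinase, -0.36 ± 0.22. Usp22, the deubiquitinase of the SAGA coactivator complex, measured 14.8, 10.6 and 16.6 CPM in MIZ1KO, against 11.5, 12.9, 12.7 and 22.9 CPM in Control. Its groups overlapped, at -0.14 ± 0.32 (SE, adjusted p = 0.837, edgeR), and Control replicate 4 stood high. With the TEC covariate it was at 0.35 (adjusted p = 0.821, edgeR). Usp28, which acts on MYC and binds 53BP1, measured 6.77, 13.0 and 14.3 CPM in MIZ1KO, against 9.71, 12.0, 18.5 and 13.3 CPM in Control, at -0.26 ± 0.34 (SE, adjusted p = 0.694, edgeR) and at 0.80 with the TEC covariate (adjusted p = 0.518, edgeR). Usp3, Usp11, Usp21, Usp47 and Usp49 had overlapping libraries and log2 fold changes between 0.04 and 0.26.

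Of the 4 members tied to RNA and the nucleolus, 0 passed, beside 5.96% of all genes tested. For 2 of the 4 the groups did not overlap, beside 19.5% of all genes tested, and 4 genes are too few to compare with these shares. Usp39, the inactive member of the spliceosome, measured 21.9, 21.6 and 26.7 CPM in MIZ1KO, against 17.7, 18.2, 10.2 and 12.6 CPM in Control. All MIZ1KO libraries lay above the Control libraries, at a log2 fold change of 0.67 ± 0.28 (SE, adjusted p = 0.146, edgeR). Usp42, which also acts on p53, measured 26.2, 21.8 and 27.2 CPM in MIZ1KO, against 14.6, 17.6, 19.7 and 16.5 CPM in Control. These too did not overlap, at 0.55 ± 0.25 (SE, adjusted p = 0.186, edgeR). With the TEC covariate Usp39 was at 0.30 and Usp42 at 0.91, and neither passed. Usp36, the nucleolar deubiquitinase of MYC, measured 32.3, 27.3 and 45.4 CPM in MIZ1KO, against 36.7, 37.0, 35.3 and 33.1 CPM in Control. Its log2 fold change was -0.03 ± 0.23 (SE, adjusted p = 0.950, edgeR), and the MIZ1KO libraries lay on both sides of the Control libraries. Usp10, which binds the stress granule protein G3BP1, gave 0.26 ± 0.23.

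Of the 6 members at endosomes, the endoplasmic reticulum, the Golgi and mitochondria, 0 passed, beside 5.96% of all genes tested. Usp19, of which one form is anchored in the endoplasmic reticulum, measured 33.0, 26.2 and 35.6 CPM in MIZ1KO, against 19.7, 14.9, 20.5 and 19.1 CPM in Control. The groups did not overlap, and the log2 fold change was 0.76 ± 0.24 (SE, adjusted p = 0.0716, edgeR). It passed in DESeq2's Wald test at 0.79 (adjusted p = 0.0353), and it was 0.32 after correcting for GC content and length (adjusted p = 0.420, edgeR). Usp8, which frees receptors of ubiquitin at the endosome, gave 0.36 ± 0.26 and Usp30, on the outer mitochondrial membrane, 0.45 ± 0.40. Usp20 had the second lowest log2 fold change of the family, at -1.47 ± 0.81 (SE, adjusted p = 0.274, edgeR). It rested on 12, 1 and 4 counts in MIZ1KO and 6, 4, 21 and 29 counts in Control.

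At the proteasome and on free ubiquitin chains, Usp14 measured 31.3, 36.3 and 23.2 CPM in MIZ1KO, against 44.1, 27.5, 28.9 and 22.5 CPM in Control. Usp14 trims chains on the proteasome, and its log2 fold change was -0.01 ± 0.26 (SE). Usp5, which takes unanchored chains apart, measured 21.2, 13.2 and 20.6 CPM in MIZ1KO, against 14.3, 15.1, 9.19 and 9.42 CPM in Control, with 0.61 ± 0.31 (SE, adjusted p = 0.227, edgeR). For both the groups overlapped.

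Of 8 members with roles in signalling and immune regulation 0 passed, beside 5.96% of all genes tested. Usp34, a very large member that acts on axin in Wnt signalling, measured 159.7, 158.6 and 159.6 CPM in MIZ1KO, against 173.5, 167.7, 205.1 and 167.1 CPM in Control. Its groups did not overlap, but the gap was small beside the fit's error, at a log2 fold change of -0.16 ± 0.19 (SE, adjusted p = 0.643, edgeR). After correcting for GC content and length its sign turned, at 0.35 (adjusted p = 0.236, edgeR). Usp2, which acts on cyclin D1, measured 6.99, 7.39 and 11.1 CPM in MIZ1KO, against 5.25, 5.91, 6.04 and 4.31 CPM in Control, with 0.64 ± 0.38 (SE, adjusted p = 0.310, edgeR). With the TEC share as a covariate Usp2 was at 1.10 and still did not pass (adjusted p = 0.475, edgeR). The 3 most abundant members of this group per length all had overlapping libraries. Usp24 measured 178.1, 131.5 and 176.6 CPM in MIZ1KO, against 147.0, 145.8, 178.1 and 175.6 CPM in Control, at 0.00 ± 0.20 (SE, adjusted p = 0.997, edgeR). Usp25 measured 78.0, 63.4 and 81.9 CPM in MIZ1KO, against 48.1, 63.8, 59.2 and 82.4 CPM in Control, at 0.23 ± 0.22 (SE, adjusted p = 0.555, edgeR) and at 0.64 with the TEC covariate. Usp9x measured 164.3, 179.0 and 181.6 CPM in MIZ1KO, against 205.3, 192.6, 145.2 and 170.7 CPM in Control, at -0.03 ± 0.20 (SE, adjusted p = 0.950, edgeR). Usp9x varied more among Control libraries than among MIZ1KO libraries. Usp18, which removes the ubiquitin-like protein ISG15, gave -0.20 ± 0.53 on 11 to 38 counts per library.

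Of the members with less described roles, Usp40 measured 13.9, 12.3 and 17.5 CPM in MIZ1KO, against 17.97, 18.36, 36.6 and 31.6 CPM in Control. The highest MIZ1KO library lay just below the lowest Control library, and Control replicates 3 and 4 stood apart from Control replicates 1 and 2. The log2 fold change was -0.87 ± 0.31 (SE, adjusted p = 0.0923, edgeR). Of 20 alternatives it passed only without Control replicate 1, at -1.02 (adjusted p = 0.0332, edgeR), and with the TEC share as a covariate its sign turned, at 0.22 (adjusted p = 0.854, edgeR). Usp31 gave -0.44 ± 0.29, Usp38 -0.15 ± 0.21 and Usp50 0.36 ± 0.39. Usp37, a cell cycle member that acts on cyclin A, gave -0.20 ± 0.21.

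**Figure D4:**
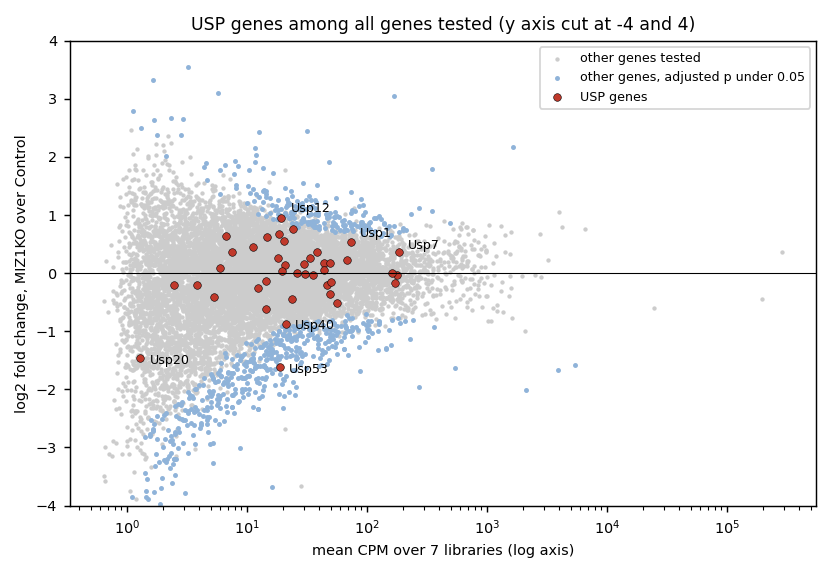
Mean CPM over the 7 libraries (log axis) against the log2 fold change of MIZ1KO over Control for all genes tested, with the 41 USP genes in red and other called genes in blue. Usp53 and Usp12 lie at the edge of the cloud, most USP genes lie within it, and 19 genes with a log2 fold change beyond 4 in size are not drawn.

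The USP genes are long, and their fold changes went with length. Their median exonic length was 7689 bases, against 4618 bases over protein-coding genes tested, and their median GC content 47.3% against 49.1%. Across the 41 genes the Spearman correlation of the log2 fold change with exonic length was -0.52, and with GC content 0.35. Over 9805 protein-coding genes tested it was -0.24 with length and 0.47 with GC content. These are descriptions across genes, which share the libraries and are not independent replicates. Of the 13 members with the lowest GC content 4 had a log2 fold change above 0, of the 14 in the middle 8 and of the 14 with the highest 10.

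**Figure D5:**
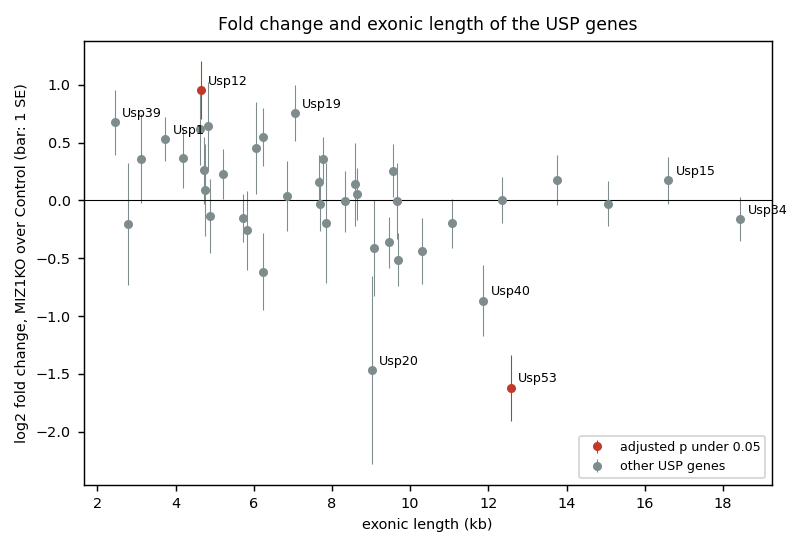
Exonic length in kb against the log2 fold change of MIZ1KO over Control with 1 SE for the 41 USP genes, with the 2 called members in red. The shorter genes Usp39, Usp1 and Usp12 lie above 0, the longer Usp40 and Usp53 lie below, and the longest, Usp34 and Usp15, lie near 0.

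Some members share bases with a neighbour. Exons of 18 members overlap those of another gene model, and for 8 of them the overlap takes over 5% of the exonic length. Usp49 shares 51.2% of it with the protein-coding model Gm20517 on the same strand and Usp14 shares 26.0% with Thoc1 on the other strand. Usp38 shares 20.5% with the antisense model Gm9725 and Usp34 11.6% with Ahsa2, each on the other strand. Usp33 shares 15.3% with the TEC model Gm43857 and 7.7% with the TEC model Gm42967. The sources used here do not say whether counting used the strand, so these counts are uncertain. Usp53, Usp12, Usp19, Usp1, Usp39 and Usp42 share no exonic bases with another model.

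MIZ1 and MYC act at promoters close to the start of transcription, so the start regions of members on both sides of 0 are shown, from 250 bases before to 50 bases after the RefSeq start on GRCm38.p6. Of the 41 members 31 had an entry; those without one were Usp1, Usp5, Usp9x, Usp14, Usp18, Usp22, Usp33, Usp39, Usp42 and Usp53. Capitals mark the GC box GGGCGG, read on either strand, and adjoining or overlapping copies run together. The regions are Usp12, which rose, at chr5:146794907-146795206 on the minus strand, Usp19 at chr9:108490426-108490725 on the plus strand and Usp40 at chr1:88008502-88008801 on the minus strand.
Usp12: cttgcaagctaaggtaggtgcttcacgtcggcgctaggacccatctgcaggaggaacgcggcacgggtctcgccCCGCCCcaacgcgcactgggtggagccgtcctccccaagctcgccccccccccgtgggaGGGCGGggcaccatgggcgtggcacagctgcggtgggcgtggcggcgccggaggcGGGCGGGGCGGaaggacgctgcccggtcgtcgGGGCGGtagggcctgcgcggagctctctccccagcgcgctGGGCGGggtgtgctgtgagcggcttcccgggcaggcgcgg
Usp19: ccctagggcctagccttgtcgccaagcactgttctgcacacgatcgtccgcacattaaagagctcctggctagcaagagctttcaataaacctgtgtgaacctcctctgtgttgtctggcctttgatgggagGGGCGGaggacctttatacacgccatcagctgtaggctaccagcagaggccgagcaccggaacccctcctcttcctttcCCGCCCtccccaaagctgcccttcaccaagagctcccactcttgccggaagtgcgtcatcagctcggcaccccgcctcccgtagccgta
Usp40: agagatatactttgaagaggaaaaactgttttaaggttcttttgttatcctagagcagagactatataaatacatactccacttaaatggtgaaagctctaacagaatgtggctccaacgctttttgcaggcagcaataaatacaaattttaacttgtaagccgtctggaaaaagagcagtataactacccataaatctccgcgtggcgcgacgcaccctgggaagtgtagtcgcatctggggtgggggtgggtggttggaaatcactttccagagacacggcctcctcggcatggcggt
The Usp12 region held 6 copies of the GC box and 75.7% G and C, the Usp19 region 2 copies and 59.0%, and the Usp40 region no copy and 45.0%. Among other members, the region of Usp34 held 5 copies and 80.3% G and C, and those of Usp7 and Usp2 held 8 and 3 copies. Usp34, at -0.16 ± 0.19 (SE, adjusted p = 0.643, edgeR), turned sign after the GC and length correction. Usp7 at 0.36 and Usp2 at 0.64 did not pass (adjusted p = 0.243 and 0.310, edgeR). Whether copies went with a direction was not tested, and no MIZ1 site was searched for. Neither the E-box CACGTG, the site of MYC and MAX, nor the CCAAT box, read as CCAAT on either strand, occurred in the Usp12, Usp19 and Usp40 regions. Over the 31 member regions 22 or 71.0% held a GC box, against 35.7% of all 32851 RefSeq start regions of the same length. An E-box stood in 4 regions or 12.9%, those of Usp4, Usp16, Usp31 and Usp32, against 7.15% of all, and a CCAAT box in 6 or 19.4%, against 37.4%. Members had met a count minimum and the 32851 regions were not filtered by counts, so these shares compare unlike sets. A match of letters is a description of the sequence and shows no binding.

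Of 36 deubiquitinases of other families 33 were tested, of which 1 rose and 1 fell in edgeR, or 6.06%, near the 5.96% of all genes tested. Libraries did not overlap for 36.4% of the 33, 6 higher and 6 lower, beside 19.5% of all genes tested. Mysm1, a metalloprotease that deubiquitinates histone H2A, measured 27.9, 36.6 and 38.8 CPM in MIZ1KO, against 59.9, 60.8, 91.5 and 59.7 CPM in Control. It fell by 0.99 on the log2 scale (SE 0.23, adjusted p = 0.0218, edgeR), with no overlap of libraries. Eif3f, a translation initiation subunit with a related but divergent domain, rose by 0.79 ± 0.21 (SE, adjusted p = 0.0360, edgeR), at 194 ± 35.3 CPM in MIZ1KO and 113 ± 20.9 CPM in Control. Yod1 measured -0.93 ± 0.30 (SE, adjusted p = 0.0739, edgeR).

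Of 13 partner proteins of USPs 1 or 7.69% passed, beside 5.96% of all genes tested, of which 1.9% were higher. Over the 13 the median log2 fold change was -0.14, with 5 above 0 and 8 below. The 1 that passed rose and was G3bp1, the stress granule protein that Usp10 binds. It measured 113, 101 and 111 CPM in MIZ1KO, against 77.8, 67.4, 48.3 and 55.4 CPM in Control, a log2 fold change of 0.80 ± 0.20 (SE, adjusted p = 0.0309, edgeR). All MIZ1KO libraries lay above all Control libraries. Nploc4 gave 0.66 ± 0.24 and Atxn7l3, a subunit of the Usp22 module of SAGA, 0.93 ± 0.35, with adjusted p-values of 0.103 and 0.115 (edgeR). The libraries of the groups overlapped for Atxn7l3 and did not for Nploc4. Of 7 ubiquitin ligases and ligase subunits listed for MYC and MIZ1 0 passed, beside 5.96% of all genes tested. Skp2 gave -0.64 ± 0.22 (SE, adjusted p = 0.0890, edgeR), Fbxl14 0.53 ± 0.27 and Stub1 0.67 ± 0.37.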

How the data were processed

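Polyadenylated RNA of sorted cells was measured in 3 MIZ1KO and 4 Control libraries, grouped by the genotype label. The authors deposited expected counts per gene, of which 6.61% were not whole, and a table of log2 values for the same libraries. The submitters' processing notes name GRCm38, STAR 2.5.2, RSEM 1.3.0, DESeq2 1.18.1 and R 3.4.3, with the annotation release and strand setting not given in the sources used here. The deposited log2 values served only as an alternative.

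Expected counts were rounded to whole numbers, filtered with filterByExpr, scaled by TMM and tested with edgeR 4.0.16 (quasi-likelihood, robust, R 4.3.3), with Benjamini-Hochberg adjustment over 11618 genes and a threshold of 0.05. The code was tested on simulated data. Alternatives used DESeq2 1.42.0, limma 3.58.1, other scalings, filters and covariates, and each library left out in turn. Genes were matched by identifier to GENCODE vM21. Counts without molecular identifiers are not independent molecules.

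The members, gene lists and tests were chosen with earlier results of these data known. Values in every library were given for members that passed, members whose libraries did not overlap, the 5 with the highest CPM per kb, and Usp7, Usp22, Usp28 and Usp36. Up to 3 genes with the smallest p were named from each other list reported. Some genes and 1 list are not reported here. Usp5, Usp14, Usp46, Usp48 and Usp54 were added after their values were seen. The sources used here do not say whether replicate numbers pair the libraries. Same-numbered libraries correlated at 0.0233, 0.0665 and 0.162 in their deviations from the group means, and libraries of unlike number at -0.158 to 0.134. So few libraries cannot decide whether they are paired.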

Additional observations from a re-analysis of the deposited data

Results flagged for a closer look

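Among the 41 USP genes, 5 had a Control library that stood far from the other 3. Chance alone flags about 1 in 20 groups, and 41 groups were looked at. The 3 MIZ1KO libraries were too few for the same check.

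Usp8 measured 23.4 CPM in Control replicate 1, against 36.8 to 38.9 CPM in the other Control libraries. Usp45 measured 21.6 CPM in Control replicate 2, where the others lay between 15.4 and 16.2 CPM. Usp34 measured 205.1 CPM in Control replicate 3, above 167.1 to 173.5 CPM in the others. Control replicate 4 stood apart for both remaining genes. Usp10 measured 23.8 CPM there and 32.7 to 34.4 CPM elsewhere in Control, and Usp22 measured 22.9 CPM there and 11.5 to 12.9 CPM elsewhere. The 5 values fell in 4 different libraries, and none of these genes passed the test between the groups.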

How the results depend on the processing

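The count of USP genes with an adjusted p under 0.05 was 2, and it was 3 in DESeq2's Wald test (Usp19 added), 1 with library totals or limma-voom, 4 when corrected for GC content and length (Usp1, Usp7, Usp12 and Usp53) and 0 with the TEC share as a covariate. With the replicate block it was 1, and 0 with the replicate block and the GC and length correction together. Whether the replicate numbers pair the libraries is not known. No MIZ1KO library shares the number of Control replicate 4, so in the block fit that library does not inform the comparison. Leaving out each library gave 0 to 4, with 0 without MIZ1KO replicate 1, 4 without Control replicate 1 and 1 without each of the others. Over all genes 692 passed, 1120 in DESeq2's Wald test, 319 in limma-voom, 315 among protein-coding genes only, 325 after the GC and length correction, 296 with the TEC covariate (47 higher and 249 lower), 79 with the replicate block and that correction, and 39 to 1350 with a library left out. The members' median log2 fold change was 0.04, and 0.21 after the GC and length correction, 0.29 with the TEC covariate, 0.14 with the replicate block, 0.23 with both block and correction, and -0.0198 to 0.19 with a library left out. Usp53 stayed below 0 in all 20 alternatives and passed in 6 of 7 with a library left out and 11 of 13 others, while Usp12 stayed above 0 and passed in 1 of 7 and 8 of 13. Signs turned only for named genes that did not pass. With library totals and with protein-coding genes only Usp24 was at -0.0347 and -0.0294. Usp36 was at 0.00030 in DESeq2, 0.0061 without a filter, 0.0075 without ribosomal RNA genes and 0.16 with the TEC covariate. Usp9x was at 0.0140 without a filter, 0.0171 without ribosomal RNA genes, 0.51 after the GC and length correction, 0.51 with the block added, and 0.0084 in the deposited log2 values. Usp34 was at 0.35 after that correction and 0.30 with the block added. With the TEC covariate Usp40 was at 0.22, Usp22 at 0.35 and Usp28 at 0.80, and Usp22 was at 0.16 with the replicate block and 0.12 with block and correction. With a library left out Usp24 ran from -0.0551 to 0.20, Usp9x from -0.0726 to 0.0640, Usp22 from -0.26 to 0.21, Usp28 from -0.42 to 0.0720 and Usp36 from -0.24 to 0.18. The cause of these shifts was not tested. With the TEC covariate the share and the genotype cannot be fully told apart, since the shares of the groups did not overlap. The lowest member, Usp20, had 1 to 29 counts per library.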
